A study of Homo sapiens with 6 samples.

Results

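miR-221 and miR-222 are sister miRNAs that a single cluster on the X chromosome encodes, and their mature arms were followed here in Müller glial cells and in the extracellular vesicles (EV) that these cells release. Members were the rows named hsa-miR-221-3p, hsa-miR-221-5p, hsa-miR-222-3p and hsa-miR-222-5p, 4 of the 2576 mature miRNAs listed in the count tables. All 4 were found in the tables, and all 4 passed the filter on low counts that left 430 miRNAs for testing. Small RNA libraries came from 3 whole cell samples of MIO-M1, an established human Müller glial line of WT genotype (passage 22 for replicate 1, 24 for replicate 2 and 26 for replicate 3). A further 3 came from EV secreted by the same line (passage 23 for replicate 1, 25 for replicate 2 and 27 for replicate 3). MIO-M1 cells were grown with 10% FCS, and for EV collection cultures at 80% confluence were washed and kept serum-free for 24 h according to the labels, while the methods give a longer collection in vesicle-depleted medium. EV were isolated by successive centrifugation and, according to the methods, treated with RNase A before lysis. Both groups come from a single line. RNA was extracted with an RNeasy kit for cells and with a Total Exosome RNA kit for EV, so that a difference between cells and EV and a difference between the kits cannot be told apart. Nor can fewer cells or vesicles holding a miRNA be told apart from fewer copies in each.

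A miRNA hairpin is cut into a duplex of a 5p and a 3p arm, of which one, the guide, is retained by Argonaute and pairs with target transcripts mainly through its seed, bases 2 to 8. For miR-221 and miR-222 the 3p arm is the usual guide, and the 5p arm is the passenger that is mostly degraded. The pair is known to repress the cell cycle inhibitors CDKN1B and CDKN1C and the receptor tyrosine kinase KIT, and to be abundant in endothelium, smooth muscle and many proliferating and glioma cells. CDKN1B is also known as one of the proteins that hold Müller glia out of the cell cycle.

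The mature sequences are shown because the 3p arms share a seed that the 5p arm of miR-222 does not have. RefSeq sequences were matched for 3 of the 4 arms, miR-221-5p being the other, and are printed 5′ to 3′ with the seed in capitals.
miR-221-3p: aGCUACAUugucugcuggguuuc
miR-222-3p: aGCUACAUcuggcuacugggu
miR-222-5p: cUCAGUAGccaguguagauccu
The 3p arms had their first 8 bases in common and shared the seed GCUACAU. No other mature miRNA in the RefSeq table carried this seed, and none shared the seed UCAGUAG of miR-222-5p. The 3p arms were 23 and 21 bases long with a GC content of 47.8% and 52.4%, and 18 bases were identical when they were aligned. miR-222-5p was 22 bases long with a GC content of 50.0%. The tetramers GGAG, CCCU and GGCU, which work on miRNA export into vesicles has linked to sorting, were looked for in the printed strand. miR-222-3p contained GGCU from base 11, a tetramer found in 12.6% of the 2370 mature miRNAs in the table. GGAG, present in 15.7%, and CCCU, present in 11.9%, were in none of the 3 arms.

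On GRCh38.p14 the hairpin MIR221 lies at chrX:45746157-45746266 and MIR222 at chrX:45747015-45747124, both on the minus strand and 748 bases apart. GENCODE 29 places both in an intron of the non-coding transcript MIR222HG-201. The count tables name no build, and their positions differ from those of GRCh38. They give miR-221-3p from 45605608 to 45605630 and miR-222-3p from 45606442 to 45606462 on chromosome X.

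The 6 libraries held between 396025 and 3990900 assigned reads, and levels are given as CPM, the count of a miRNA divided by its library's total and scaled to 1000000 reads. Whole cell libraries had between 586 and 1058 miRNAs with at least 1 count, against 329 to 431 in EV. The 329 belonged to EV replicate 3, although it had the most reads of the EV libraries. The paper also describes its EV sample 3 as set apart from the other EV samples, and places the variation mainly among miRNAs of low level. All 4 Müller glia markers (miR-9-5p, miR-9-3p, miR-125b-5p and miR-204-5p) were counted in every library, summing to 126949 to 131082 CPM in whole cells and 46891 to 96737 CPM in EV, and the neuronal miR-124-3p was at 0 in all 6. The paper lists miR-9-3p as higher and miR-204-5p as lower in EV, so the sum does not give the direction of each marker. Of these markers only miR-125b-5p is in the paper's list of the most abundant whole cell miRNAs. The whole cell sum is therefore mostly that of 1 marker. The 6 blood and serum markers summed to 172 to 1173 CPM in whole cells, where miR-451a and miR-144-3p were at 0, and to 1718 to 2318 CPM in EV. The endothelial pair of miR-126 arms summed to 30.3 to 93.4 CPM in whole cells and 535 to 810 CPM in EV. The photoreceptor miRNAs, 3 of 3 counted in both groups, summed to 227 to 333 CPM in whole cells and 1151 to 1218 CPM in EV. The part of these other markers in the results for miR-221 and miR-222 was not tested.

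Both guide arms were lower in EV than in whole cells, by 2.64-fold for miR-221-3p and 3.04-fold for miR-222-3p, and neither passenger arm passed the test. miR-221-5p lay lower in each EV library, whereas miR-222-5p was scarce in cells and was counted more often in EV replicates 1 and 2 but not at all in EV replicate 3. At an adjusted p below 0.05, 2 of the 4 arms were called lower (edgeR, quasi-likelihood, Benjamini-Hochberg over the 430 miRNAs). Of all miRNAs tested, 14.0% were called lower and 14.7% higher in EV. DESeq2, the tool named in the methods, called the same 2 arms, with 19.8% of miRNAs lower and 34.7% in either direction. The paper already lists both arms as lower in EV, with log2 fold changes of -1.66 for miR-221-3p and -1.86 for miR-222-3p. Neither called arm reached a change of 2.5 on the log2 scale, which 21.6% of all miRNAs passed by edgeR together with an adjusted p below 0.05. The 95% intervals given below for single libraries (Wilson) cover counting error only.

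miR-221-3p, the dominant guide of the cluster, had 37778, 21142 and 18214 CPM in the whole cell libraries, given here and below in the order of replicates 1, 2 and 3. The EV libraries had 10591, 9997 and 7485 CPM. Every EV library lay below every whole cell library, a pattern found for 27.9% of the miRNAs tested, while groups that did not overlap in either direction made up 48.4%. Means were 25711 ± 10552 CPM in whole cells and 9358 ± 1649 CPM in EV (SD, n = 3), with the wider spread in whole cells. The log2 fold change was -1.40 ± 0.33 (SE), with an adjusted p of 0.0172 by edgeR. DESeq2 gave -1.66 ± 0.42 (SE), with an adjusted p of 0.000476. Without whole cell replicate 2, the most deeply sequenced library, the adjusted p by edgeR was 0.0861 at a log2 fold change of -1.63.

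By rank, miR-221-3p was the 6th, 12th and 13th most counted miRNA in the whole cell libraries. Among EV miRNAs it was the 16th, 19th and 23rd. It thus stayed among the abundant miRNAs of EV although its share of reads was smaller there.

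miR-222-3p, with the same seed, had 6606, 3894 and 3353 CPM in the whole cell replicates. EV replicates had 2053, 1217 and 1037 CPM, and again no EV library reached the lowest whole cell library. The means were 4617 ± 1743 CPM in whole cells and 1436 ± 542 CPM in EV (SD, n = 3). The log2 fold change was -1.60 ± 0.40 (SE), with an adjusted p of 0.0213 by edgeR, and DESeq2 gave -1.86 ± 0.49 (SE) with an adjusted p of 0.000865. The call by edgeR was lost without whole cell replicate 1 (-1.43, adjusted p = 0.0584), without whole cell replicate 2 (-1.82, adjusted p = 0.0861) and without EV replicate 2 (-1.53, adjusted p = 0.0570). The rank of miR-222-3p was between 33 and 47 in whole cells and between 51 and 72 in EV.

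**Figure D1:**
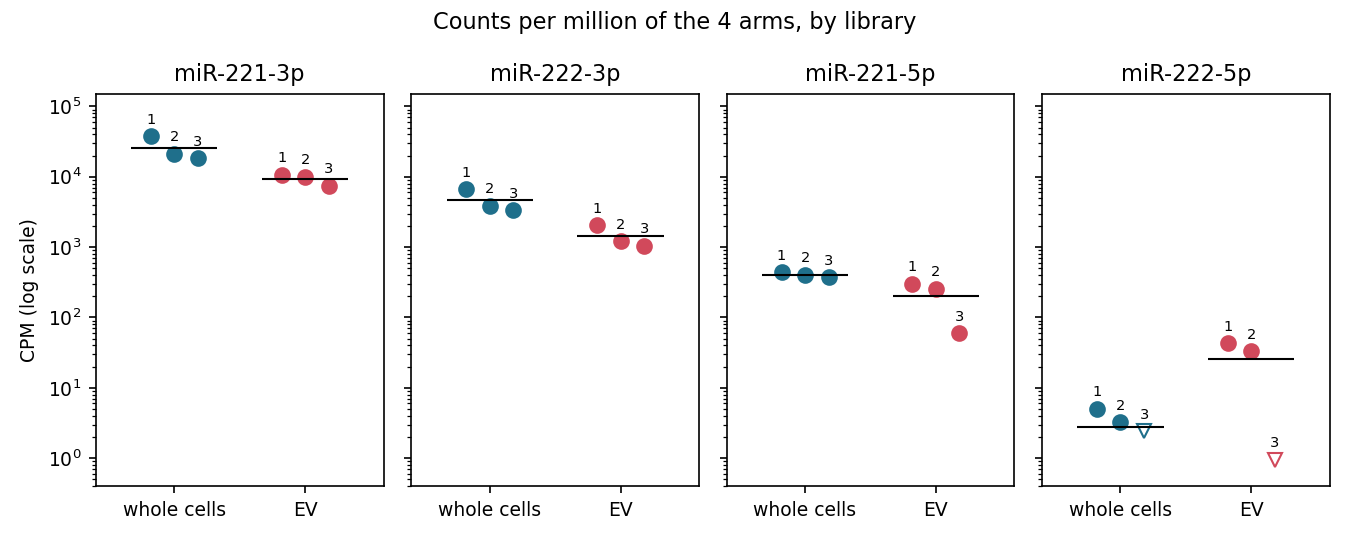
CPM of each arm (y axis, log scale) in the whole cell (blue) and EV (red) libraries, numbered by replicate, with a line at the mean of each group. Open triangles mark a count of 0, drawn at the level that 3 counts would give. The 3p arms and miR-221-5p lie lower in every EV library than in any whole cell library, and miR-222-5p is at 0 in 1 library of each group.

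miR-221-5p, the passenger arm of miR-221, had 439, 404 and 371 CPM in whole cells. It had 300, 255 and 60.0 CPM in the EV libraries. The groups did not overlap, but EV replicate 3 lay far below the other EV libraries, with 188 reads in a library of 3134561. The mean was 405 ± 34.4 CPM in whole cells and 205 ± 128 CPM in EV (SD, n = 3). The log2 fold change of -0.99 ± 0.63 (SE) did not pass the test, with an adjusted p of 0.318 by edgeR and 0.147 by DESeq2. Leaving out EV replicate 3 gave a log2 fold change of -0.77 ± 0.43 (SE), with an adjusted p of 0.230 by edgeR.

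miR-222-5p, the passenger arm of miR-222, had 2, 13 and 0 reads in the whole cell libraries. The EV libraries had 53, 68 and 0 reads. In whole cells this was 5.05 CPM (95% interval 1.38 to 18.4) in replicate 1 and 3.26 CPM (1.90 to 5.57) in replicate 2, and the 0 in replicate 3 allows up to 2.40 CPM. EV replicate 1 had 43.2 CPM (33.1 to 56.6) and EV replicate 2 had 33.4 CPM (26.3 to 42.3), both above the interval of each whole cell library. EV replicate 3, with the most reads of the EV libraries, had 0 of 3134561, which allows up to 0.957 CPM. The groups therefore overlapped. EV replicate 3 also had the fewest miRNAs with any count of all libraries (329), and the part of this in its 0 was not tested. The arm passed the filter of 5 CPM in 3 libraries through EV replicates 1 and 2 and the 2 reads of whole cell replicate 1. The log2 fold change was 3.30 ± 2.09 (SE), with an adjusted p of 0.318 by edgeR and 0.341 by DESeq2. Without EV replicate 3 it was 3.67 ± 1.25 (SE), with an adjusted p of 0.0779 by edgeR, and without whole cell replicate 3 it was 2.48 ± 2.62 (SE), with an adjusted p of 0.661.

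In all 6 libraries the order of the levels was miR-221-3p, miR-222-3p, miR-221-5p and miR-222-5p. In CPM, which needs no length correction between arms of nearly equal length, the ranges of neighbours in this order did not overlap over the 6 libraries. The lowest value of miR-221-3p was 7485 CPM and the highest of miR-222-3p was 6606 CPM. The lowest value of miR-222-3p was 1037 CPM against a highest of 439 CPM for miR-221-5p. For the passenger arms the lowest value of miR-221-5p was 60.0 CPM and the highest of miR-222-5p was 43.2 CPM.

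Together the 4 arms took 4.48%, 2.54% and 2.19% of the assigned reads in the whole cell libraries. They took 1.30%, 1.15% and 0.858% in the EV replicates. The mean share was 3.07% ± 1.23 in whole cells and 1.10% ± 0.224 in EV (SD, n = 3), and the shares of the groups did not overlap (exact permutation test, two-sided, p = 0.1, the smallest possible with 3 libraries a group). miR-221-3p and miR-222-3p, the carriers of the GCUACAU seed, made up 3.03% ± 1.23 of whole cell reads and 1.08% ± 0.209 of EV reads (SD, n = 3).

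**Figure D2:**
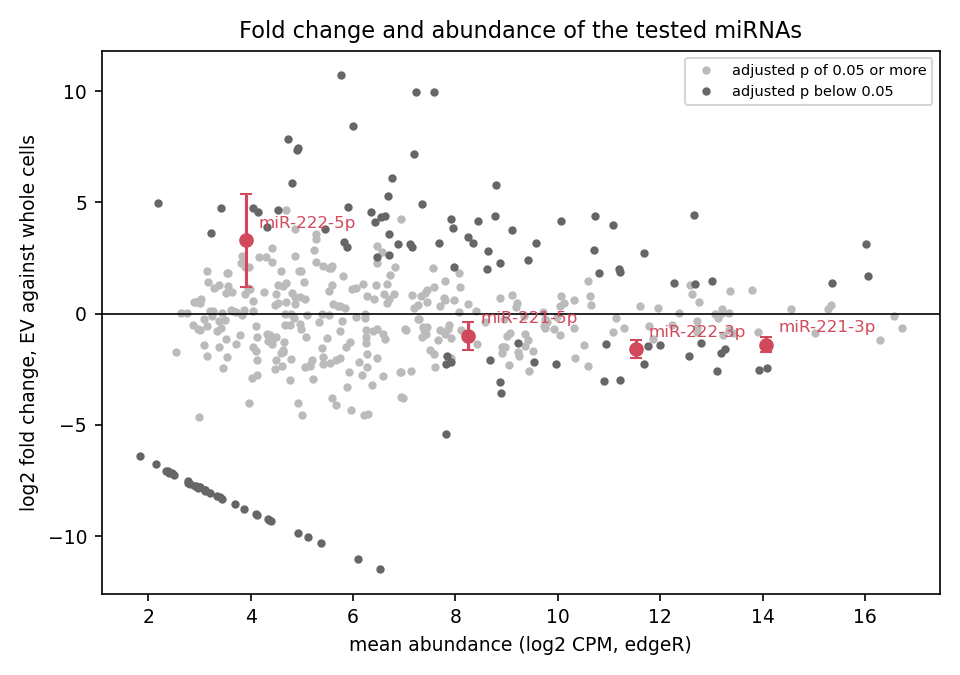
Log2 fold change of EV against whole cells (y axis) and mean abundance in log2 CPM (x axis) for the 430 tested miRNAs, by edgeR, with the 4 arms in red and their standard errors as bars. Dark points passed an adjusted p below 0.05. The 3p arms sit at high abundance below 0, while miR-222-5p sits at low abundance with a standard error of 2.09. The dark diagonal at the bottom is made of miRNAs at 0 in every EV library.

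Ratios between arms of the same library do not depend on how libraries are scaled, and they were taken as log2 values with 0.5 added to each count. There were 5.72, 5.43 and 5.43 reads of miR-221-3p for each read of miR-222-3p in the whole cell libraries. The EV libraries had 5.16, 8.22 and 7.21. The log2 ratio was 2.47 ± 0.04 in whole cells and 2.75 ± 0.35 in EV (SD, n = 3). The groups overlapped, and the difference of 0.29 was smaller than the spread between the EV libraries (exact permutation test, two-sided, p = 0.4). The near constant ratio in whole cells held across a range of total counts from 396025 to 3990900.

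For each read of the passenger arm miR-221-5p there were 86.0, 52.3 and 49.2 reads of miR-221-3p in the whole cell replicates. The EV replicates had 35.3, 39.2 and 125. EV replicates 1 and 2 lay below every whole cell library and EV replicate 3 lay above every one. The log2 ratio was 5.92 ± 0.44 in whole cells and 5.80 ± 1.01 in EV (SD, n = 3; exact permutation test, two-sided, p = 0.9).

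The guide-to-passenger ratio of miR-222 differed more between libraries. There were 1308 and 1195 reads of miR-222-3p for each read of miR-222-5p in whole cell replicates 1 and 2. EV replicates 1 and 2 had 47.5 and 36.5. In the third replicate of both groups no passenger read was counted beside 4198 guide reads in whole cells and 3252 in EV. The log2 ratio was 11.08 ± 1.70 in whole cells and 7.80 ± 4.22 in EV (SD, n = 3), with overlap between the groups (exact permutation test, two-sided, p = 0.3). The difference of the log2 ratios was -3.28. It moved to -5.71 without EV replicate 3, to -1.97 without EV replicate 2 and to -2.16 without EV replicate 1. Pooled over all libraries of a group, miR-222-5p had 15 reads among 5639069 in whole cells (2.66 CPM) and 121 among 6398737 in EV (18.9 CPM).

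**Figure D3:**
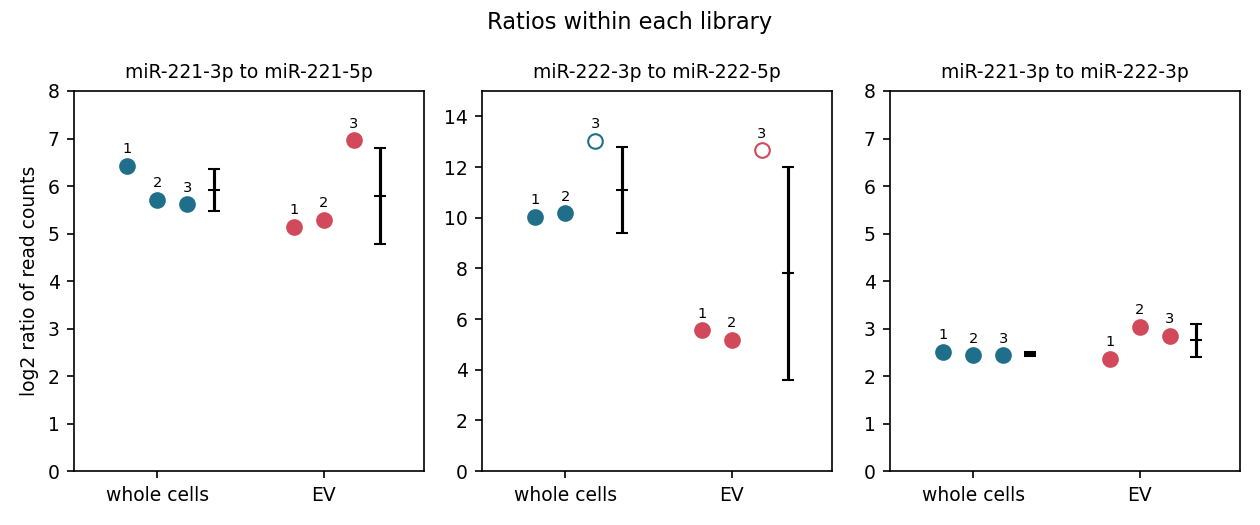
Log2 ratios of read counts within each library (y axis, 0.5 added to each count) for the arms of miR-221, the arms of miR-222 and the guide arms of both miRNAs. Points are libraries numbered by replicate, bars give the mean and SD of each group (n = 3), and open points have a count of 0 for miR-222-5p. The ratio of the guide arms is 2.47 ± 0.04 in whole cells, while the arm ratio of miR-222 spreads from 5.18 to 12.67 within EV. The 12.67 belongs to EV replicate 3, which had no read of miR-222-5p, and rests on the added 0.5.

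Less counted arms were more often at 0 in EV than in whole cells. EV libraries also had fewer miRNAs with any count, so these zeros are not shown to be particular to less counted arms. Both arms passed the filter for 110 hairpins, and the less counted arm was at 0 in at least 1 whole cell library for 7 of them and in at least 1 EV library for 69. Over the 110 hairpins the log2 ratio of the major to the minor arm was higher in EV for 76 and lower for 34, with a median change of 2.07. Where the less counted arm was at 0, the ratio rests on the added 0.5. Among the 24 hairpins whose less counted arm averaged at least 100 CPM, as miR-221-5p did, it was lower in EV for 16, with a median change of -1.07. That average covered all 6 libraries, so arms raised in EV entered this set more easily. The direction of its median therefore depends in part on the choice. The change was -0.12 for miR-221 and -3.28 for miR-222. The part of low counts in the result for miR-222-5p was not tested.

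The miRNAs whose profile over the 6 libraries was most like that of each guide arm were listed by the root mean square difference of log2(CPM + 4) values centred on each miRNA's own mean. For miR-221-3p the nearest was miR-23b-3p at 0.09, followed by miR-431-5p at 0.20 and miR-105-3p at 0.22. miR-222-3p, at 0.25, ranked 4th among all other miRNAs tested, and miR-23a-3p at 0.29 and let-7d-5p at 0.32 came next. miR-221-5p ranked 49th at 0.62 and miR-222-5p 342nd at 1.80.

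For miR-222-3p the nearest of all was miR-221-3p at 0.25. It was followed by miR-181b-5p and miR-181c-5p at 0.25, miR-409-5p at 0.28 and miR-105-3p and miR-23b-3p at 0.30. The lists of 5 other miRNAs had 2 members in common, miR-23b-3p and miR-105-3p. The measure covers 6 libraries in a pair of groups and is a description with no test. The 4 CPM added to each value shrinks differences between low levels. By this measure the scarce miR-105-3p and miR-181c-5p are near, although their fall in EV was larger than that of the guide arms. miR-105-3p had 6, 32 and 7 reads in whole cells and 0 in every EV library, where its level was at least 5.90-fold lower in EV at a floor of 3 counts a library.

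miR-23b-3p had 8535, 5395 and 4350 CPM in the whole cell replicates and 2335, 2612 and 1763 CPM in the EV replicates. Its log2 fold change was -1.41 ± 0.30 (SE), with an adjusted p of 0.0120 by edgeR, beside -1.40 for miR-221-3p. let-7d-5p (-1.35), miR-431-5p (-1.32), miR-181b-5p (-1.45) and miR-409-5p (-1.91) were also called lower in EV at an adjusted p below 0.05 by edgeR. All of these were picked for profiles like those of arms lower in EV, so their direction follows from the choice. miR-23a-3p had a log2 fold change of -0.97 with an adjusted p of 0.0516 by edgeR. miR-181c-5p had 7, 57 and 12 reads in whole cells and 2, 0 and 0 in EV, with an adjusted p of 0.0757 by edgeR.

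**Figure D4:**
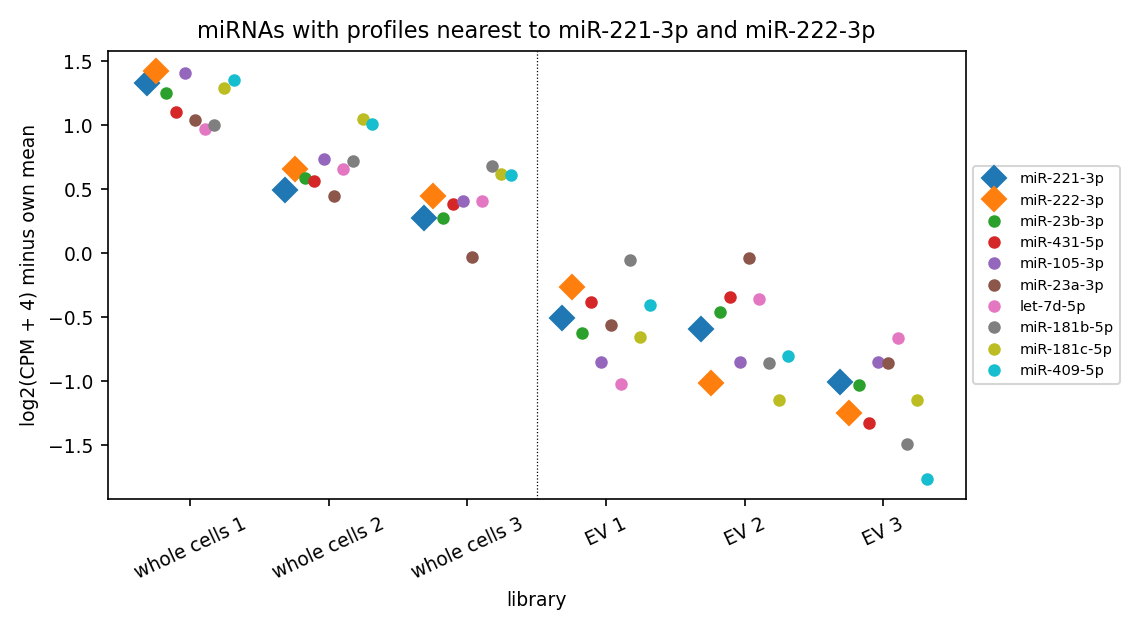
Log2(CPM + 4) minus the miRNA's own mean (y axis) in the 6 libraries (x axis) for miR-221-3p and miR-222-3p (diamonds) and the miRNAs nearest to either (circles), set apart sideways within a library so that they can be read. All are above their mean in whole cell replicates 1 and 2 and below it in every EV library, and miR-23b-3p lies closest to miR-221-3p with a root mean square difference of 0.09. The shared direction follows from choosing miRNAs by likeness of profile.

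The tables place 162 other mature miRNAs on the X chromosome alone, of which 84 had any count and 42 were tested. The position of a gene on this chromosome went with no single direction, since 4 were called higher and 5 lower in EV (edgeR, adjusted p below 0.05), 9 of 42 against 28.6% of all miRNAs tested. Their median log2 fold change was -0.25, near the -0.23 of all 430 miRNAs, also with the 5 that had no EV read set at their bound. miR-450b-5p had 4, 33 and 10 reads in whole cells and 159, 443 and 669 in EV, a log2 fold change of 4.40 ± 0.76 (SE). miR-424-3p and miR-503-3p, encoded near it, had no read in EV and were at least 47.2-fold and 5.88-fold lower there. The other arms of these hairpins, miR-424-5p and miR-503-5p, were tested and not called.

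miR-660-5p had a log2 fold change of 2.63 ± 0.68 (SE), while miR-500a-5p and miR-500b-5p, whose near-identical sequences make their counts uncertain, had no EV read and were at least 10.5-fold and 13.4-fold lower. The more counted arm of miR-500a, miR-500a-3p, was tested and not called. miR-6087 was higher in EV by 3.85 ± 0.93 (SE) on the log2 scale. miR-374a-3p had 0, 1 and 0 reads in whole cells and 64, 63 and 193 in EV, and passed the filter through the EV libraries alone. The remaining call was miR-105-3p, with an adjusted p of 0.0107 by edgeR but 0.0512 by DESeq2. The 5 chromosome X miRNAs called lower passed the filter through the 3 whole cell libraries alone, so a call could only be lower. Over all 430 miRNAs tested, 36 had no read in any library of 1 group. The guide arms of miR-221 and miR-222 were counted in every EV library. They were also far more abundant, with whole cell means of 25711 and 4617 CPM against at most 76.7 CPM for those 5.

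Of 14 miRNAs known for roles in endothelium or smooth muscle, where miR-221 and miR-222 also act, all were tested and 4 were called higher and 5 lower in EV (edgeR, adjusted p below 0.05), with a median log2 fold change of -0.08. Over all miRNAs tested, 14.7% were called higher and 14.0% lower, with a median of -0.23. miR-126-3p, the endothelial miRNA, was higher by 3.45 ± 0.54 (SE), and miR-126-5p had 0, 2 and 0 reads in whole cells and 178, 240 and 341 in EV. miR-145-5p and miR-296-5p had no EV read and were at least 84.1-fold and 13.8-fold lower. They passed the filter through the whole cell libraries alone, and miR-126-5p through the EV libraries alone. The other calls were miR-143-3p and miR-27a-3p, higher, and miR-92a-3p, miR-210-3p and miR-23b-3p, lower.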

How the data were processed

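According to the methods, the authors trimmed adapters from reads of QIAseq small RNA libraries and aligned them to miRBase. They deposited, for each of 6 libraries, the raw count of reads assigned to each mature miRNA, with its position on a chromosome. The labels and headers seen do not settle whether reads were aligned to miRBase sequences or to a genome. Per the file headers, featureCounts 1.5.0-p1 counted forward-strand reads (setting 1) on an annotation of miRBase 20 after alignment with Bowtie 1. The methods give Bowtie2 and a later miRBase. No step that collapses molecular identifiers is stated, so intervals and floors cover counting error only. No library was a copy of another (chi-square divided by its degrees of freedom was at least 41.9 for each pair).

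The filter asked for 5 CPM in 3 of the 6 libraries. TMM factors scaled the counts, and the quasi-likelihood test of edgeR 4.0.16 in R 4.3.3 was applied, with Benjamini-Hochberg adjustment over all 430 miRNAs. The SE given with edgeR values was derived as the absolute log2 fold change divided by the square root of the test's F statistic. DESeq2 1.42.0 was an alternative. Ratios and shares used two-sided exact permutation tests in scipy 1.17.1, and figures used matplotlib 3.10.9. No label says that samples came from separate cultures other than by passage, so p-values measure the spread between these samples. A count of 0 was taken to allow 3 counts.

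Members, lists and tests were chosen with earlier results of these data known. The miRNAs named are the 4 arms, the 5 nearest profiles to each guide arm, and the called list members with the largest changes, up to 4 a list, or 4 in each direction for chromosome X. miRNAs named without a value at the end of the list of vascular miRNAs fall outside this rule and were chosen after their values were seen. The same holds for miR-424-5p, miR-503-5p and miR-500a-3p. miR-105-3p is within the rule as a nearest profile, but among those of chromosome X it was also chosen after its values were seen. A further list of miRNAs fixed with the others is not reported here.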

Additional observations from a re-analysis of the deposited data

How the results depend on the processing

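Scaling, filters, thinning to the smallest library and DESeq2 kept the direction and side of the threshold of all 4 arms. miR-221-3p ran from -1.66 to -1.39 and miR-222-3p from -1.89 to -1.59 on the log2 scale. RLE factors moved the median of all miRNAs by -0.18, and relative to that median miR-221-3p was at -1.17 with TMM and -1.25 with RLE. With 1 library left out, the log2 fold change ran from -1.75 to -1.20 for miR-221-3p and from -2.08 to -1.43 for miR-222-3p. The number of arms called was 0 to 2, and leaving out whole cell replicate 2 gave the 0, where 2 arms had an unadjusted p below 0.05 by edgeR. It was 0 at an adjusted p below 0.01 by edgeR, against 2 by DESeq2, and 0 with either tool when a log2 change of 2.5 in either direction was also asked for.

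All calls numbered 123, 31 at an adjusted p below 0.01, 240 without the filter and 26 to 128 with 1 library left out. Calls on chromosome X numbered 9, 1 at an adjusted p below 0.01, 14 without the filter and 0 to 12 with 1 library left out. The 0 arose when whole cell replicate 2 was left out, and 4 of these miRNAs then had an unadjusted p below 0.05 by edgeR. Fits with 5 libraries tested fewer miRNAs, and 3 of them did not keep miR-222-5p.

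The difference in the log2 ratio of miR-221-3p to miR-221-5p, -0.12, ran from -0.70 to 0.21 with 1 library left out and turned to 0.13 without whole cell replicate 1, 0.21 without EV replicate 1 and 0.13 without EV replicate 2. The cause was not tested. The other ratios and the share kept their direction. The difference in the share of the 4 arms, -1.97 percentage points, was smallest without whole cell replicate 1, at -1.27. That library had the fewest reads, and leaving it out also gave the smallest log2 fold change of miR-221-3p, -1.20. With log2(CPM + 1), 4 of the 5 nearest to miR-221-3p and 3 of the 5 nearest to miR-222-3p were listed again. No paired analysis was possible because the labels give passages and no replicate numbers, and no passage occurs in both groups. Replicates 1 to 3 only name the samples of a group.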
